A study of Mus musculus with 3 samples.

Results

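Type I interferon-stimulated genes, the transcripts that a cell switches on when its interferon receptor is engaged, were examined in immortalized mouse skin lymphatic endothelial cells (imLECs). The 37 genes are a named list of antiviral effectors, nucleic acid sensors, ubiquitin-pathway enzymes and interferon-pathway transcription factors, and every probe set that the platform annotation assigns to 1 of them was read. All 37 had at least 1 such probe set, 70 in all, among 18194 genes on the array. Transcript levels came from 1 array for each of 3 cultures, at passages 13, 14 and 18, which form a single group. The cells were obtained by FACS from mice of the H-2Kb-tsA58 strain (ImmortoMice), whose cells carry a temperature-sensitive large T antigen driven by the interferon-inducible H-2Kb promoter. They were grown at 33 °C with 1 unit/ml of interferon-gamma and then held at 37 °C for 3 days in medium that lacked it, per the labels' protocols, so all 3 cultures share the transgene and the earlier interferon-gamma. No untreated or interferon-treated arm belongs to the design, and passage, culture and array cannot be told apart, because each passage is 1 culture on 1 array.

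Type I interferons bind the receptor pair Ifnar1 and Ifnar2, whose kinases Jak1 and Tyk2 phosphorylate Stat2. With Irf9 it acts in a complex that binds the interferon-stimulated response element (ISRE) in promoters, while the gamma-activated sequence (GAS) is the element mainly used by interferon-gamma. The genes reached in this way bind or cut viral RNA, tether budding virus, deplete nucleotides, attach the ubiquitin-like protein ISG15 to other proteins, and raise the level of the sensors and factors themselves.

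The start regions of these genes are shown first because the values described further on are those of genes with and without the ISRE letters there. RefSeq promoter windows of assembly GRCm38.p6, 300 bases running from 250 before to 50 after the annotated start, were given for 27 of the 37 genes (32 windows). The ISRE core was searched as GAAA, any 2 bases, GAAA and, for the other strand, as TTTC, any 2 bases, TTTC, and the GAS as TTCNNNGAA, which reads the same on both strands. Matches of 1 motif may overlap each other. The ISRE core was found in 11 of 32 windows (34.4%), against 3.44% of all 32851 windows in the table, and the GAS in 7 of 32 (21.9%), against 8.30%. The 11 genes with an ISRE core were Ifit1, Ifit3, Stat2, Oas1a, Oas3, Rsad2, Bst2, Ifih1, Ddx58, Trim21 and Eif2ak2. A match is a string of letters and not a measured binding site, and a gene without one may hold the element outside the window. Of the windows with a match, 6 follow, 5′ to 3′ in the gene's direction, with the ISRE core in capitals. They were taken in order of mean level and belong to 2 IFIT genes, an oligoadenylate synthetase, 2 antiviral effectors and Eif2ak2. The level of Eif2ak2 hardly differed between passages 13 and 18.
Ifit3 (chr19:34583279-34583578, plus strand): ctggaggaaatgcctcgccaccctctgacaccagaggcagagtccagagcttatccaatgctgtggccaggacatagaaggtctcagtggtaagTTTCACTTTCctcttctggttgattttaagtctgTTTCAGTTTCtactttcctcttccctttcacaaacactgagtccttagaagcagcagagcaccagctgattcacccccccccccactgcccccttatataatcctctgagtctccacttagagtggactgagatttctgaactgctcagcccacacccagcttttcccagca
Eif2ak2 (chr17:78882523-78882822, minus strand): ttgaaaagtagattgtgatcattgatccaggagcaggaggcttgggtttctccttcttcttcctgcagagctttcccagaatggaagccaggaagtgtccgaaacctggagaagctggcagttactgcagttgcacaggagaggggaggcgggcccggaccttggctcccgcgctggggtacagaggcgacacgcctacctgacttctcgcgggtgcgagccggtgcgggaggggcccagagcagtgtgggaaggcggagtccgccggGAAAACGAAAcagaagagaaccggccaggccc
Bst2 (chr8:71537423-71537722, minus strand): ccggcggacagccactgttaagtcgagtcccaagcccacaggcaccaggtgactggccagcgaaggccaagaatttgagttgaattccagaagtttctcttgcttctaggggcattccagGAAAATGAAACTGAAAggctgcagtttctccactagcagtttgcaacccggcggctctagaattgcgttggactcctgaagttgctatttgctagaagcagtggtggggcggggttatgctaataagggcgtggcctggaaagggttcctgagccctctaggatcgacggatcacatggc
Ifit1 (chr19:34640639-34640938, plus strand): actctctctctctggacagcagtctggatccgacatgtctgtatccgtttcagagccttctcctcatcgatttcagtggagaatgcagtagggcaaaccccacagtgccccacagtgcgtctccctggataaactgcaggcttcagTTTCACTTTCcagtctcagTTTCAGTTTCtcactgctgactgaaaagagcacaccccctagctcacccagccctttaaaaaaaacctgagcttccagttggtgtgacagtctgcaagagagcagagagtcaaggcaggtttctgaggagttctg
Rsad2 (chr12:26456403-26456702, minus strand): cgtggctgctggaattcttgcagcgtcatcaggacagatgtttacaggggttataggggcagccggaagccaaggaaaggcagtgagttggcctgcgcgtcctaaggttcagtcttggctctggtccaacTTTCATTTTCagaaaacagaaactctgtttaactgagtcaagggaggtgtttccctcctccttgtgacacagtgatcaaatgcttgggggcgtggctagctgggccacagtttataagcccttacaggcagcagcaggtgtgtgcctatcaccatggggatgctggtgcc
Oas1a (chr5:120907476-120907775, minus strand): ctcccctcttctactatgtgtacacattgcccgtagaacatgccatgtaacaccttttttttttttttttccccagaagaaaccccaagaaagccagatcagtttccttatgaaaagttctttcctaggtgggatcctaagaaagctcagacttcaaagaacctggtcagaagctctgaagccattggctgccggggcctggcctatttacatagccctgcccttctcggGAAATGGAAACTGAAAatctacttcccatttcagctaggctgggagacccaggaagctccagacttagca
The Ifit3 and Ifit1 windows each held 2 separate cores, with the letters TTTCACTTTC and TTTCAGTTTC in either gene. Their first bases lay 156 and 122 bases before the start in Ifit3 and 104 and 85 bases before it in Ifit1. In Bst2 and Oas1a 2 cores overlapped, beginning 130 and 124 bases before the start in Bst2 and 20 and 14 bases before it in Oas1a. The single core of Rsad2 began 120 bases before the start, and that of Eif2ak2 lay after it, beginning at base 18 when the start is counted as base 0.

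**Figure D1:**
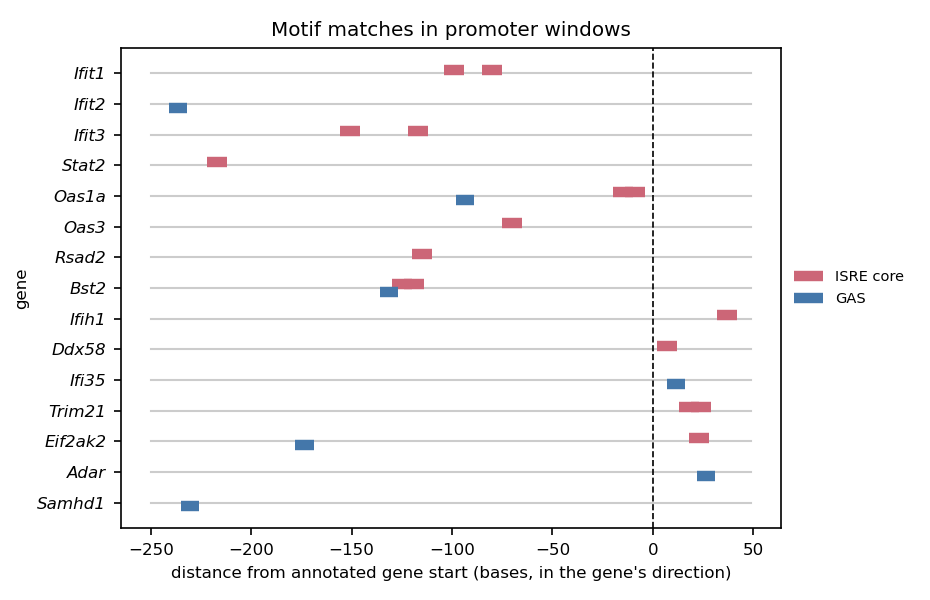
Each grey line is the promoter window of 1 gene, from 250 bases before to 50 after the annotated start (dashed line, base 0), and the bars mark matches to the ISRE core or the GAS. The 11 genes with an ISRE core hold it at different distances, on either side of the start, and Oas1a, Bst2 and Eif2ak2 are the 3 genes with both motifs.

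Levels are given as log2 signal intensity of the gene's brightest probe set, and a level is compared only with the same gene on another array, because probe sets differ in brightness. A floor was set on each array from genes restricted to other tissues, at 5.58, 5.59 and 6.05 log2 units at passages 13, 14 and 18, and a value under it gives only an upper limit. Of the 37 genes, 29 lay above the floor on all 3 arrays, against 48.1% of all genes. Oas3, Irf7, Dhx58 and Zbp1 lay above it at passages 13 and 14, Oas2 and Oasl1 at passage 14 alone, and Mx1 and Mx2 on no array.

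The list as a whole was highest at passage 14 and lowest at passage 18. Of the 33 genes whose 3 arrays could be ordered, 30 stood in the order 14, then 13, then 18, an order found in 25.2% of the 9144 genes that could be ordered. The exceptions were Ifi27, Herc6 and Uba7. The SD over the 3 cultures had a median of 0.64 log2 units among the 29 genes above the floor throughout (lowest Uba7 at 0.07, highest Rsad2 at 1.59), against 0.24 over all such genes, and 27 of the 29 exceeded that value. In RNA of a whole culture, fewer cells expressing a gene and less transcript per cell cannot be told apart.

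**Figure D2:**
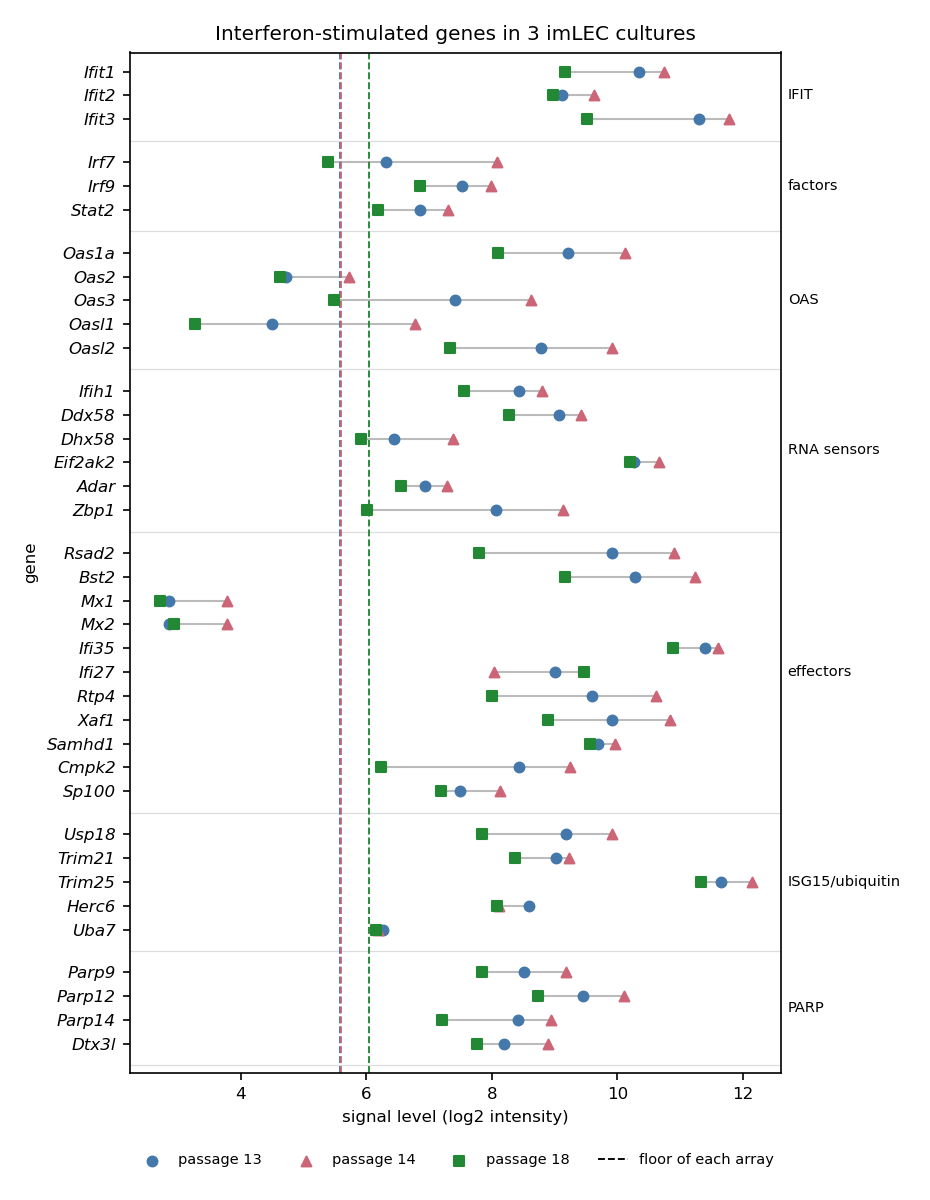
Each row is 1 gene, with its log2 signal intensity in the culture of passage 13 (circle), 14 (triangle) and 18 (square); dashed lines are the floors of the 3 arrays, of which those of passages 13 and 14 nearly coincide. In 30 of the 33 genes that can be ordered the triangle lies to the right of the circle and the square to its left.

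The IFIT proteins bind viral RNA that lacks the host's cap modification and hinder its translation. Ifit3 read 11.30 at passage 13, 11.78 at passage 14 and 9.52 at passage 18. Ifit1 read 10.35, 10.75 and 9.16 in the same order. Ifit2 was at 9.12, 9.63 and 8.98, so that its passage 18 culture lay close to passage 13 while those of the other IFIT genes lay well below. The passage 18 culture was 3.41-fold lower than passage 13 in Ifit3, 2.29-fold lower in Ifit1 and 1.10-fold lower in Ifit2. Passage 14 was above passage 13 by 1.40-fold in Ifit3, 1.32-fold in Ifit1 and 1.42-fold in Ifit2.

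Among the transcription factors, Stat2 and Irf9, which act in the ISRE-binding complex, both stood highest at passage 14 and lowest at passage 18. Irf9 was at 7.53, 7.99 and 6.85 at passages 13, 14 and 18, and Stat2 was at 6.86, 7.30 and 6.19. Passage 18 was 2.21-fold lower than passage 14 in Irf9 and 2.15-fold lower in Stat2. Irf7, the factor that amplifies interferon-alpha production, differed more. Its levels were 6.32 at passage 13 and 8.08 at passage 14, a 3.38-fold difference and the widest measured in the list between these cultures. At passage 18 it read 5.39, under the floor, and was at least 4.09-fold lower than at passage 14.

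The OAS enzymes make the oligoadenylate that activates RNase L, and Oasl1 and Oasl2 are their relatives. Oas1a read 9.22, 10.13 and 8.10 at passages 13, 14 and 18, and Oasl2 read 8.79, 9.92 and 7.33. Oas3 was at 7.41 and 8.62 at passages 13 and 14 and under the floor at passage 18 (5.48). Oas3 was 2.31-fold and Oasl2 2.19-fold higher at passage 14 than at 13. Against passage 14, the culture of passage 18 was 4.06-fold lower in Oas1a, 6.02-fold lower in Oasl2 and at least 5.94-fold lower in Oas3. Oasl1 was above the floor at passage 14 only, at 6.77, which was at least 2.28-fold above passage 13. Oas2 was close to the floor, at 5.72 at passage 14 and under it at 4.72 and 4.62 at passages 13 and 18.

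The RNA sensors divided by the size of their differences. Ddx58 (RIG-I) and Ifih1 (MDA5), the helicases that detect viral RNA in the cytosol, were at 9.07, 9.42 and 8.28 and at 8.44, 8.80 and 7.56 at passages 13, 14 and 18. Dhx58 (LGP2), which modulates them, read 6.44 and 7.38 at passages 13 and 14, and 5.91, under the floor, at passage 18. Zbp1, a sensor of left-handed nucleic acid that can trigger necroptosis, had the widest gap of this set. It read 8.06 at passage 13, 9.13 at passage 14 and 6.01 at passage 18, just under the floor of 6.05, and was at least 8.46-fold lower at passage 18 than at 14. Eif2ak2 (PKR), the kinase that halts translation when it binds double-stranded RNA, was at 10.26, 10.66 and 10.20. Adar, the editing enzyme that converts adenosine to inosine in double-stranded RNA, was at 6.94, 7.28 and 6.56. In Eif2ak2 and Adar no pair of cultures was 2-fold apart, although the median of the Adar probe sets differed by -1.09 log2 units between passages 18 and 14.

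Effectors included the genes with the widest differences. Rsad2 (viperin) and Cmpk2 lie next to each other in the genome, and Cmpk2 makes the nucleotide that viperin turns into a chain terminator of viral RNA synthesis. Rsad2 read 9.91, 10.90 and 7.79 at passages 13, 14 and 18. Cmpk2 read 8.43, 9.25 and 6.23, the last close to the floor of 6.05. The passage 18 culture was 8.64-fold lower than passage 14 in Rsad2 and 8.12-fold lower in Cmpk2, and 4.37-fold and 4.60-fold lower than passage 13. All 3 Rsad2 probe sets and both Cmpk2 probe sets gave this order. Bst2 (tetherin), which holds budding virus at the cell surface, was at 10.28, 11.24 and 9.17. Rtp4, a chaperone that also binds viral RNA, was at 9.59, 10.62 and 8.01, and Xaf1, a pro-apoptotic protein, was at 9.92, 10.84 and 8.89. In Bst2, Rtp4 and Xaf1 the passage 18 culture was 4.19-fold, 6.13-fold and 3.87-fold lower than passage 14.

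Other effectors differed less. Sp100, a component of nuclear bodies, was at 7.50, 8.13 and 7.19 at passages 13, 14 and 18. Ifi35 was at 11.40, 11.60 and 10.88 by a probe set open to cross-hybridisation, and a more specific Ifi35 probe set was at 8.43, 8.67 and 7.53. Samhd1, which depletes the deoxynucleotides that retroviruses need, was at 9.70, 9.96 and 9.56, with no pair of cultures 2-fold apart. Ifi27 ran against the list. It read 9.01 at passage 13, 8.04 at passage 14 and 9.47 at passage 18, so that passage 14 was 1.96-fold below passage 13 and passage 18 was 2.68-fold above passage 14. That probe set is open to cross-hybridisation. The second, more specific Ifi27 probe set was also lowest at passage 14, with 433, 222 and 427 intensity units, but its log2 differences were 0.95 between passages 18 and 14, under 2-fold, and -0.02 between 18 and 13. The GTPases Mx1 and Mx2 were under the floor on every array, between 2.71 and 3.78 log2 units, and no fold is given for them.

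The ISG15 and ubiquitin enzymes divided between followers and exceptions. Usp18, which removes ISG15 and also damps receptor signalling, was at 9.19, 9.91 and 7.84 at passages 13, 14 and 18, and was 4.18-fold lower at passage 18 than at 14. Trim25, a ubiquitin ligase that acts on RIG-I, was at 11.66, 12.14 and 11.34 by a probe set open to cross-hybridisation. A more specific Trim25 probe set was at 10.79, 11.67 and 10.41, with a log2 difference of -1.25 between passages 18 and 14. Trim21, a cytosolic antibody receptor with ligase activity, was at 9.03, 9.23 and 8.37. Herc6, the mouse ligase for ISG15, was instead highest at passage 13, at 8.59, with 8.12 and 8.09 at passages 14 and 18. Uba7, the activating enzyme for ISG15, was at 6.27, 6.18 and 6.15, close to the floor and within 1.09-fold on all arrays.

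The 4 genes of the PARP group all had the order 14, 13, 18. Parp9 and Dtx3l act as a complex of a macrodomain protein and a ubiquitin ligase, and Parp12 and Parp14 transfer ADP-ribose to proteins. Parp9 was at 8.52, 9.18 and 7.84 at passages 13, 14 and 18, and Dtx3l at 8.19, 8.89 and 7.77. Parp12 read 9.45, 10.10 and 8.74, and Parp14 read 8.42, 8.95 and 7.21. Against passage 13, passage 18 was 2.32-fold lower in Parp14 and 1.60-fold, 1.63-fold and 1.33-fold lower in Parp9, Parp12 and Dtx3l.

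Some of these genes adjoin each other on their chromosome, with no other protein-coding gene between them, and were set side by side. Rsad2 and Cmpk2 differed between passages 18 and 13 by nearly the same amount (log2 differences of -2.13 and -2.20). Parp14, Dtx3l and Parp9 form a run of 3, with differences of -1.21, -0.41 and -0.68. Adjacent Ifit2 and Ifit3 were far apart, at -0.14 and -1.77, so neighbours did not always share the size of a difference. The remaining adjacent pairs, Oas2 with Oas3 and Oasl1 with Oasl2, each hold a gene that was above the floor on 1 array only.

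Between passages 13 and 14, 32 of the 35 genes above the floor on either array were higher at passage 14 (91.4%, against 48.6% of 10009 genes), and 3 were lower (51.0% of all genes were). The median log2 difference was 0.53, with a range of -0.97 to 1.76, against a median of -0.01 over all genes. At least 2-fold higher were 6 of 35 (17.1%, against 2.37%), namely Irf7, Oas3, Oasl1, Oasl2, Rtp4 and Zbp1, and 0 were at least 2-fold lower (3.38% of all genes were). Between passages 13 and 18, 32 of 33 genes stood lower in the later culture (97.0%, against 50.5%) and 1 stood higher, Ifi27 (49.0% of all genes did), by its brightest probe set only. Their median log2 difference was -0.69. At least 2-fold lower were 13 of 33 (39.4%, against 2.01%), and 0 were 2-fold higher (3.06% of all genes were). The 13 were Ifit1, Ifit3, Oas1a, Oas3, Oasl2, Usp18, Rsad2, Bst2, Parp14, Rtp4, Xaf1, Cmpk2 and Zbp1. Between passages 14 and 18, 33 of 34 stood lower in the later culture (97.1%, against 48.4%), and their median was -1.29. At least 2-fold lower were 22 of 34 (64.7%, against 5.32%). Ifi27 was the 1 gene that was higher at all (51.4% of all genes were) and also the 1 gene at least 2-fold higher (7.62%), a call that the more specific Ifi27 probe set did not give. These comparisons share cultures, so they are 3 views of the same arrays. Oas3, Oasl2, Rtp4 and Zbp1 were at least 2-fold from passage 13 in both directions, and the share of all genes that were so was not computed.

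**Figure D3:**
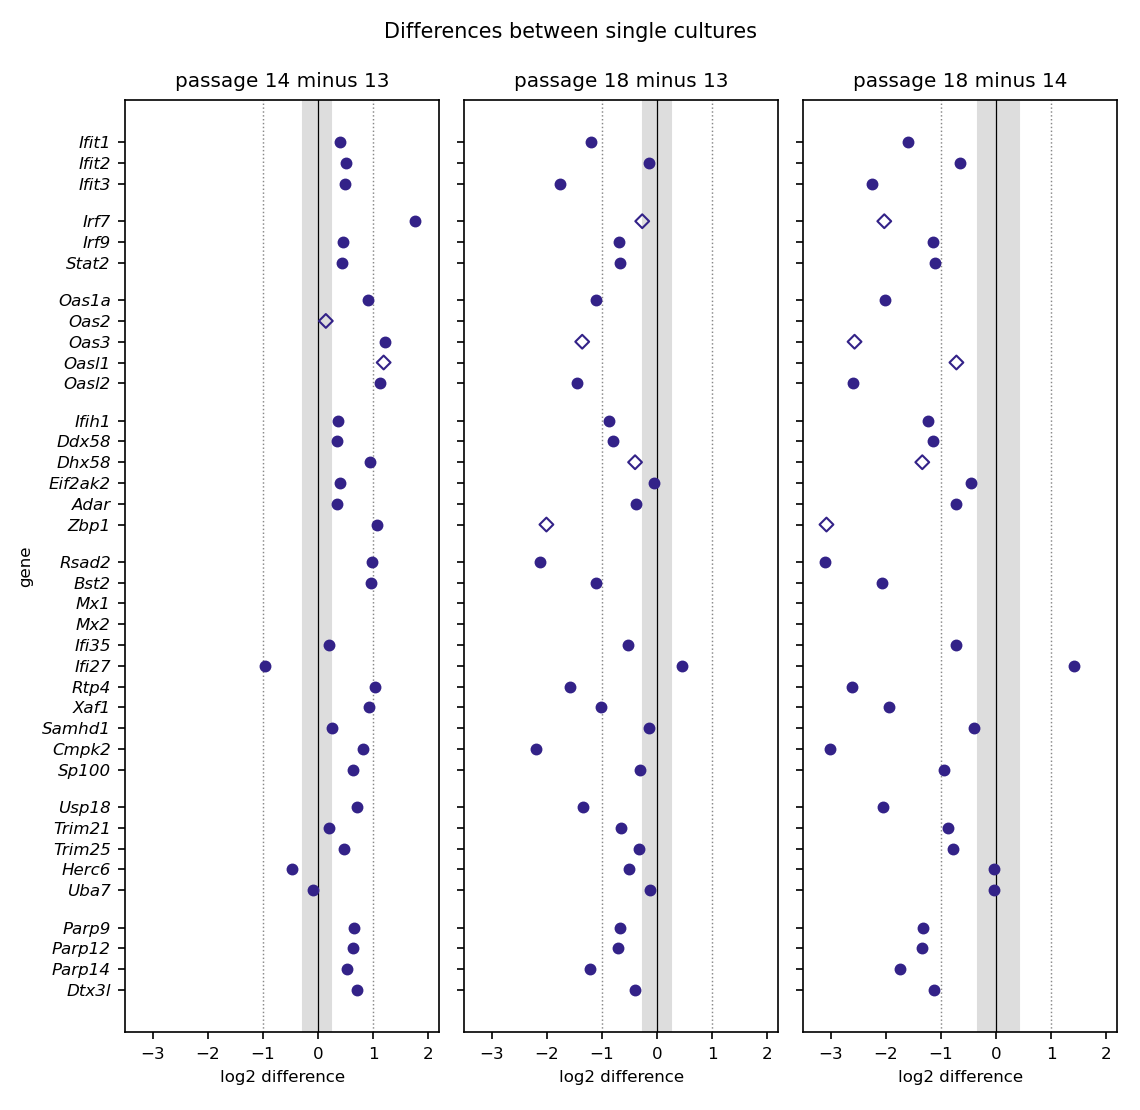
Log2 differences between single cultures for each gene, for passage 14 minus 13, 18 minus 13 and 18 minus 14. Filled circles are measured differences, open diamonds are lower bounds where 1 culture lay under the floor, the grey band is the middle 50% of all genes and dotted lines mark 2-fold; 32 of 35 genes lie right of 0 in the left panel, and 32 of 33 and 33 of 34 lie left of it in the others.

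**Figure D4:**
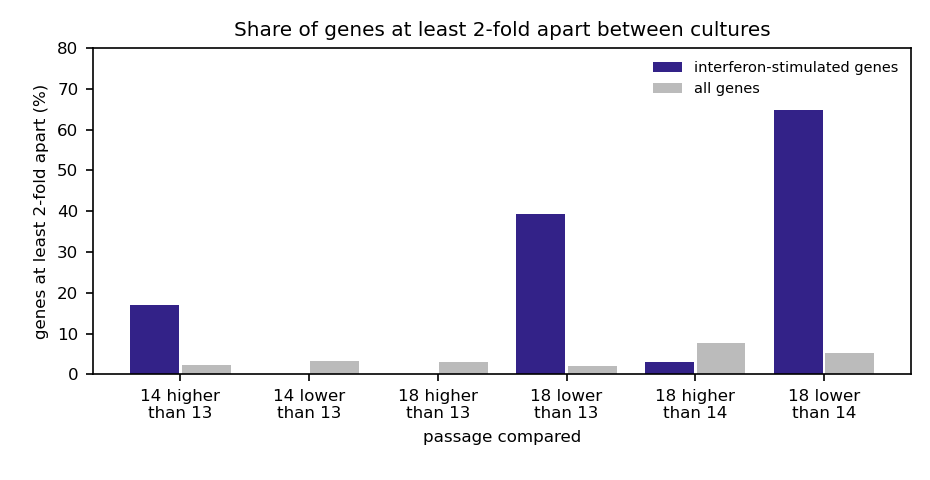
Bars give the percentage of the interferon-stimulated genes (dark) and of all genes (grey) that were at least 2-fold higher or lower in 1 culture than in another. The dark bar stands above the grey one for passage 14 over 13 (17.1% and 2.37%), for passage 18 under 13 (39.4% and 2.01%) and for passage 18 under 14 (64.7% and 5.32%).

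By role, the median difference between passages 18 and 14 was -2.30 over 4 OAS genes, where Oas3 and Oasl1 enter as lower bounds of size and Oas2 is left out. It was -1.95 over 9 effectors and -1.60 over 3 IFIT genes. The PARP group stood at -1.34, the RNA sensors at -1.19, the transcription factors at -1.15 and the ISG15 and ubiquitin enzymes at -0.79. Genes with an ISRE core in the window shown above had a median of -1.60 between passages 18 and 14 (11 genes, 9 of them at least 2-fold lower), and those without had -0.87 (16 genes, 7 at least 2-fold lower), where 5.32% of all genes were. Between passages 18 and 13 the medians were -1.11 with the core (6 of 11 at least 2-fold lower) and -0.41 without it (3 of 15), where 2.01% of all genes were. Between passages 14 and 13 the medians were 0.44 with the core and 0.57 without it. These are descriptions of a few genes each and were not tested.

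Several genes had more than 1 probe set, which allowed the order to be read again within a gene. Of 70 probe sets, 53 could be ordered, and 44 of those gave the order 14, 13, 18. By brightest probe set, 25.2% of all genes had this order, and no share over all probe sets was computed. Probe sets of 1 gene are read on the same 3 arrays and add no further cultures. Among the 15 genes with at least 2 probe sets that could be ordered, 12 agreed internally on whether they followed the order. In the other 3, Ifi35, Parp14 and Samhd1, the brightest probe set followed the order and another did not: an Ifi35 probe set read 215, 205 and 146 intensity units, a Parp14 one 100, 97.8 and 55.5, and a Samhd1 one 219, 256 and 225. All 3 ordered Herc6 probe sets departed from it.

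A linear trend over passage number was fitted across all genes with limma, which has 1 residual degree of freedom per gene here. Of 9453 genes tested, 0 passed at a Benjamini-Hochberg adjusted p under 0.05 (0% called), and 329 (3.48%) had an unadjusted p under 0.05. None of the 33 interferon-stimulated genes tested passed (smallest adjusted p = 0.888 by limma). The unadjusted p was under 0.05 in 6 of 33: Cmpk2, Ifit1, Ifit3, Parp14, Rsad2 and Zbp1. Setting passage 18 against the mean of the other cultures instead gave 17 such genes of the list, among 677 over all genes, and again 0 after adjustment. Slopes were negative in 32 of 33, with a median of -0.20 log2 units per passage, against a median of -0.001 over all genes tested. The share of negative slopes over all genes was not computed. Without the passage 18 culture that median was 0.58, so the sign of the trend rests on passage 18, and a straight line does not describe genes that were highest at passage 14. The largest fitted slopes were those of Rsad2 and Cmpk2 (-0.53 each, SE 0.16 and 0.15).

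Genes that act upstream of the list were read on the same arrays. None of the 9 measured type I interferon genes was above the floor on any array, with Ifnb1 at 2.16, 2.90 and 2.54 and Ifna1 at 4.25, 5.05 and 4.82 at passages 13, 14 and 18. Transcripts of these ligands were therefore not detectable at the sensitivity of these arrays. The receptor genes were well above the floor, with Ifnar1 at 8.20, 8.36 and 8.49 and Ifnar2 at 10.55, 10.58 and 10.70. Jak1 was at 9.11, 9.22 and 9.12 and Tyk2 at 128, 142 and 122 intensity units. Of the 9 measured receptor and signalling genes, 1 was at least 2-fold apart between 2 cultures: Irf8, an interferon regulatory factor of myeloid cells, at 5.87, 7.01 and, under the floor, 4.73. Among genes that induce interferon, 5 of 9 were above the floor on all arrays and 0 were 2-fold apart by values or bounds. The cytosolic DNA sensor gene Cgas was at 7.65, 7.77 and 7.24, its adaptor gene Sting1 at 8.75, 9.08 and 8.35, the adaptor gene Mavs at 6.73, 6.50 and 7.13, and Tlr3 at 10.63, 10.52 and 10.10. The adaptor gene Ticam1 was above the floor at passage 13 alone, at 6.52, at least 1.91-fold above passage 14, while Tlr7 and Tlr9 were under the floor. Of 7 measured negative regulators, 5 were above the floor throughout and 0 were 2-fold apart. Over all genes, 2.01% to 7.62% were at least 2-fold apart per pair of cultures and direction. No share over any pair was computed, so these small counts do not set the upstream genes apart from other genes. Socs3 was at 7.29, 6.32 and 6.98, Ptpn1 at 8.94, 9.12 and 8.57, Ptpn2 at 9.16, 9.66 and 9.41 and Ptpn11 at 10.66, 10.49 and 10.73, whereas Socs1 and Ptpn6 were under the floor. At passage 14 Socs3 stood 1.95-fold below passage 13, and at passage 18 Sting1 stood 1.66-fold below passage 14. H2-K1, an interferon-inducible class I gene of the locus whose promoter drives the T antigen, was at 12.11, 11.88 and 12.12. By this probe set, which is open to cross-hybridisation, it did not follow the order of the list. The probe sets read for Ifna1, Tlr3, Sting1, Mavs, Ticam1, Socs3 and Ptpn6 are likewise open to cross-hybridisation. The ligand genes were not tested in the limma trend. Tested were all 9 receptor and signalling genes, 7 of the induction genes, 5 of the negative regulators and H2-K1. None passed, and neither did any other of the 9453 genes tested.

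**Figure D5:**
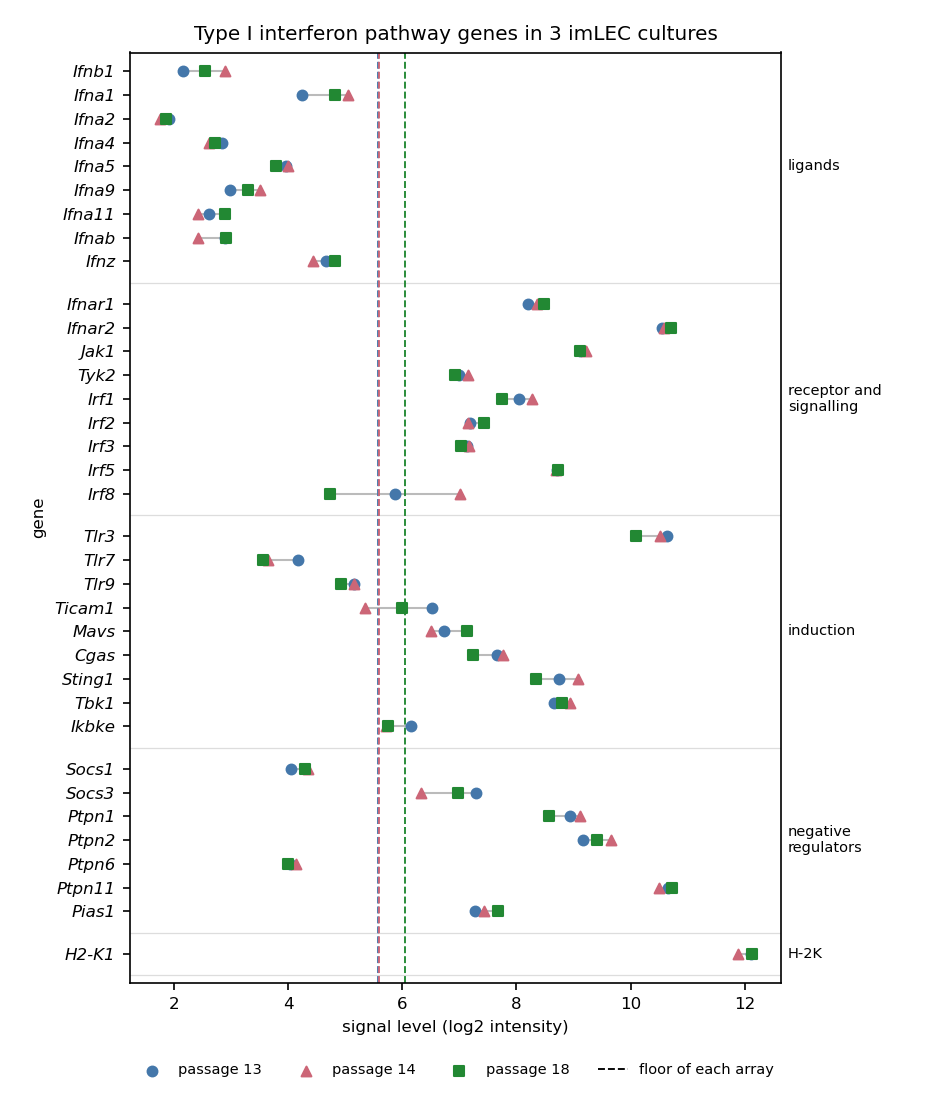
Log2 signal intensity of ligand, receptor and signalling, induction and negative regulator genes and of H2-K1 in the cultures of passages 13 (circle), 14 (triangle) and 18 (square), with the floor of each array dashed. All 9 ligand genes lie left of the floors, and Irf8 is the gene whose 3 cultures are farthest apart.

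A second list holds interferon-responsive genes outside the 37. Of 36 measured, 32 were above the floor on at least 1 array, and 19 of 32 stood in the order 14, 13, 18 (25.2% of all genes did). Against passage 13, the passage 18 culture was lower in 25 of 32 (50.5% of all genes), the median difference being -0.28, and at least 2-fold lower in 6 (2.01% of all genes). These were the exonuclease gene Isg20 (7.34, 8.16 and 6.34), Slfn2 (8.85, 9.48 and 7.46), Slfn5 (7.65, 7.98 and 6.30), Nmi (8.64, 9.05 and 7.54), Phf11d (511, 1005 and 203 intensity units) and the immunoproteasome subunit gene Psmb8 (10.37, 10.61 and 9.33). The guanylate-binding protein gene Gbp7 read 9.12 and 10.14 at passages 13 and 14, a 2.02-fold difference, and with Gbp3, Trim30a and Ifi204 it completed the 10 of 32 genes that were at least 2-fold lower at passage 18 than at 14 (5.32% of all genes). Ifi30, a lysosomal thiol reductase, ran the other way, like Ifi27, with 8.92, 7.64 and 9.54. Ifi30 was among the 7 of 32 genes that were higher at passage 18 than at 13 (49.0% of all genes were). Ifitm2 and Ifitm3, membrane proteins that block viral fusion, were at 10.42, 10.41 and 10.20 and at 13.21, 13.30 and 12.91. Ifi44l and Ifitm1 were under the floor throughout, between 2.47 and 3.77. The difference between this list and the 37 genes was not tested.

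Other features of the cultures moved with these differences, and their part in them was not tested. The Gapdh 3′/5′ control ratio, a sign of RNA quality, was 19.4 on the passage 18 array against 8.59 and 7.10 at passages 13 and 14. The same ratio for Actb differed less, with 1.18 at passage 13, 1.42 at passage 18 and passage 14 between them. Of the proliferation genes, all but Mcm6, which was highest at passage 18, also peaked at passage 14. All 16 measured were higher there than at 13 (48.6% of all genes were), by a median of 1.25. Of the 15 that could be ordered, 13 had the order 14, 13, 18 (25.2% of all genes did). Of 11 lymphatic endothelial markers, 7 were above the floor on all arrays, Prox1 was above it at passage 13 alone, and Mmrn1, Reln and Itga9 were under it throughout. Of 8 lymphatic markers compared, 6 were lower at passage 18 than at 13 (50.5% of all genes were), with a median of -0.62 over the 8. At least 2-fold lower were 3 of them (2.01% of all genes were): Lyve1 (10.43, 11.52 and 7.35), Sox18 (9.23, 10.27 and 7.87) and Flt4 (10.99, 10.87 and 9.85). Lyve1 and Sox18 thus had the order of the list, whereas Foxc2 (9.61, 8.06 and 9.90) and Pdpn (12.17, 10.92 and 11.86) were lowest at passage 14. All 10 pan-endothelial markers were above the floor and lower at passage 18 than at 13 (median -0.63), where 50.5% of all genes were lower. Of these 10, 7 had the order 14, 13, 18 (25.2% of all genes did). Of 15 leukocyte markers, 0 were above the floor on all arrays, 5 were on at least 1, and the summed intensity of the list was 687, 607 and 399 at passages 13, 14 and 18. Such sums include values under the floor and are carried by the brightest probe sets, here Cd53 and Cd68. Cd68, a lysosomal protein abundant in macrophages, was at 127, 244 and, under the floor, 58.2 intensity units, in the order of the list. Lyz2 was also highest at passage 14, at 63.9 intensity units, and under the floor at passage 18, at 38.9. In intensity units, Cd53 was at 244, 121 and, under the floor, 64.6, and Coro1a at 92.5, 49.1 and, under the floor, 61.2. Csf1r was at 56.2 at passage 13 and under the floor at passages 14 and 18, at 11.4 and 32.3. The defining leukocyte gene Ptprc, the macrophage genes Itgam and Adgre1 and the plasmacytoid dendritic cell gene Siglech, were under the floor on every array. Fibroblast markers had 5 of 10 above the floor on all arrays and summed intensities of 3886, 2479 and 5560. Of 6 compared, 4 were at least 2-fold higher at passage 18 than at 13, where 3.06% of all genes were. These were Col1a1, Col1a2, Col3a1 and Mmp2, while Thy1 and Fbln1 were lower. Mural markers (3 of 8 above the floor) summed to 6199, 1090 and 7420, with Acta2 at 1467, 308 and 5289 and Tagln, lower at passage 18 than at 13, at 4535, 619 and 1756. Keratinocyte markers had 1 of 8 above the floor on all arrays and sums of 295, 204 and 304.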

How the data were processed

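RNA of 3 imLEC cultures was amplified linearly and labelled with biotin for 1 array each, per the labels' protocols. The deposited table gives 1 linear intensity per probe set (45101) and array. MAS5 appears, with no role, per the submitters' processing notes. How values were scaled is not given in the sources used here. Because array medians were close (25.7, 26.0 and 26.3), values were not normalized again.

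The platform annotation gave 1 gene to 34958 probe sets, several to 932 and none to 9211. Symbols were updated through Entrez identifiers to RefSeq (GRCm38.p6), which matched 34754. Where several probe sets named a gene, the one brightest on average (log2 scale) stood for it. The floor of each array was set at percentile 95 of the 44 measured genes known from other tissues only, of which Apoa2 and Prm1 exceeded it on all arrays. In differences, values under the floor were raised to it, giving a lower bound, and genes under it on both arrays were left out. With 1 culture per passage, pairs of cultures were described by 2-fold counts beside all genes. The trend used limma 3.58.1 in R 4.3.3 (lmFit, eBayes with an intensity trend), on genes with a mean above the mean floor, with Benjamini-Hochberg adjustment over all of them, and was tested on simulated data. Because no passage has a replicate, its p-values rest on how far the 3 single cultures depart from the fit. They describe no spread between replicate cultures, and precision is limited by having 3 arrays.

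The genes, lists and tests were chosen with earlier results of these data known. All 37 genes are named; of other interferon pathway lists, genes at least 2-fold apart, or else the first 4 detected and 2 undetected. Promoters were chosen among genes above the floor on all arrays with an ISRE core, in order of mean level.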

Additional observations from a re-analysis of the deposited data

How the results depend on the processing

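The order of the cultures, the medians and the 2-fold counts kept their direction when the floor was set at the 90th or 99th percentile or was made common to all arrays, when probe sets of a gene were summarised by their median, without probe sets open to cross-hybridisation, after quantile normalization or median centring, and with 16 added before the log. Over these 8 settings the number of genes in the order 14, 13, 18 lay between 27 and 31, and the median difference between passages 18 and 14 between -1.17 and -1.33. With a fold of 1.5 in place of 2, 17 genes were higher at passage 14 than at 13 and 20 lower at passage 18 than at 13, with 29 for passage 18 below 14. A fold of 3 left 1 and 5 genes, and 14 for passage 18 below 14. The background moves as well: 7.44%, 7.46% and 13.5% of all genes passed 1.5-fold, and 0.530%, 0.417% and 1.68% passed 3-fold, in these 3 comparisons. The median slope over passage ranged from -0.33 to 0.58 when each culture was left out in turn, and its sign turned without passage 18. A trend over 2 cultures has no test, and leaving out a culture removes the pairs it belongs to. The trend called 0 genes of the list under each of the 9 alternatives fitted, where 254 to 697 genes, and 5 to 17 of the list, had an unadjusted p under 0.05; the smallest adjusted p over all genes was 0.615, for passage 18 against the mean of the others. Using the median of probe sets, Trim25 was 1.25 log2 units lower at passage 18 than at 14 (0.79 by its brightest probe set) and Samhd1 0.14 lower (0.40). The Trim25 difference was also 1.25 without probe sets open to cross-hybridisation. With the floor at the 99th percentile, Oas3 differed by -0.66 between passages 18 and 13 (-1.36 otherwise) and Stat2 by -0.54 between 18 and 14 (-1.10 otherwise), both then under 2-fold, as was Dhx58 between 18 and 14 (-0.63). Between passages 14 and 13, Rtp4 (0.97) and Zbp1 (0.62) fell short of 2-fold by the median of probe sets, and Oasl1 with a common floor (0.72) or 16 added (0.97). By the median of probe sets Xaf1 also differed by -0.79 between 18 and 13. Levels under or near the floor limit Oas2, Oas3, Oasl1, Irf7, Dhx58, Zbp1, Stat2, Cmpk2, Uba7, Mx1 and Mx2. No paired analysis was possible because the design has a single group.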

Other observations

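Genes outside the list whose promoter window holds the ISRE core were read in the same way, as a description. Of 268 such genes compared between passages 18 and 14, 27 (10.1%) were at least 2-fold lower at passage 18, against 351 of 7451 genes without the core (4.71%). The medians were -0.07 and 0.01. Between passages 14 and 13, 13 of 277 genes with the core (4.69%) and 170 of 7871 without it (2.16%) were at least 2-fold higher. Between passages 18 and 13 the shares at least 2-fold lower were 2.61% (7 of 268) and 1.82% (134 of 7372). The differences between the shares were not tested.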
